A study of Mus musculus with 3 samples.

Results

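The genes examined here were 10 genes of the neuroendocrine dense-core granule: the granins Chga, Chgb, Scg2 and Scg3, the prohormone convertases Pcsk1 and Pcsk2, the convertase partners Scg5 and Pcsk1n, the carboxypeptidase gene Cpe, and Resp18. They were chosen by name, as chromogranins, secretogranins and genes of prohormone processing, among 46095 gene rows of a table of read counts. RNA-seq was performed on prostate tumor tissue of male TRAMP mice, a C57BL/6 line in which a viral SV40 oncoprotein transgene is expressed in the prostatic epithelium. All groups carried this transgene and were 37 weeks old. The control group was TRAMP with wild-type Phf8, held as 1 library named TRAMP. The Phf8-KO group was TRAMP with Phf8 knocked out, the gene of a histone demethylase that lies on the X chromosome, held as the libraries Phf8-KO1 and Phf8-KO2. Each library was pooled RNA of 3 mice, so differences between single mice were not measured. The comparison asked how the RNA of this granule program differed in tumors without Phf8.

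Dense-core granules are the organelles in which neuroendocrine and endocrine cells store peptide hormones for regulated release. Granins aggregate the cargo as the granule forms, convertases cleave prohormones at pairs of basic residues, and carboxypeptidase E trims the ends that the cleavage leaves. Chromogranin A, the product of Chga, is a tissue and serum marker of neuroendocrine differentiation in prostate cancer. The same genes are also used by neurons and by endocrine organs.

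The libraries held between 26747443 and 31876182 counts. A single count corresponded to between 0.0302 and 0.0375 CPM (counts per 1000000 counts, on library sizes scaled by edgeR's TMM factors). The targeted gene Phf8 was at 19.4 CPM in TRAMP, with Phf8-KO1 at 15.0 and Phf8-KO2 at 15.9 CPM, and this difference did not pass the test (log2 fold change -0.33, standard error 0.25, adjusted p = 0.44, edgeR's quasi-likelihood test), so Phf8 RNA did not separate the genotypes in these counts, which do not show from which exons the reads came. Between both Phf8-KO pools 18.3% of tested genes differed by more than 2-fold, whereas 32.7% of genes in Phf8-KO1 and 36.3% in Phf8-KO2 did so from TRAMP. Marker genes of other tissues also differed between pools. Summed over 10 skeletal muscle genes the levels of TRAMP, Phf8-KO1 and Phf8-KO2, in this order, were 1585, 70.3 and 11.7 CPM, and over 10 smooth muscle genes they were 694, 5162 and 390 CPM. The fat cell markers summed to 722, 45.7 and 100.2 CPM. Of these, 7 of 9 were more than 2-fold lower in Phf8-KO, beside 7 of the 10 granule genes and 16.1% of all tested genes. All 6 leukocyte markers were below TRAMP in both Phf8-KO pools, against 42.8% of all tested genes. The seminal vesicle markers summed to 115, 1438 and 2094 CPM. The 6 urothelial markers had similar sums, at 893, 879 and 904 CPM, but differed from each other. Of these, 4 were below TRAMP in both Phf8-KO pools (Krt20 57.0, 0.150 and 0.0302 CPM) and 1 was above it (Upk1b 362, 657 and 636 CPM). The part of these tissues in the levels of the granule genes was not tested. In bulk tissue, fewer cells of a type and less RNA per cell cannot be told apart. With 1 control library, p-values measure only the spread between both Phf8-KO pools.

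The start regions of the members are shown first, because several granule genes are known to carry a cAMP response element (CRE) close to the start, and these letters are one thing that members could share apart from their levels. RefSeq (GRCm38.p6) gave a window of 250 bases before the start for 9 of the 10 members, Cpe being the other. The 8 letters TGACGTCA, which read the same on both strands, were in 3 of these windows, those of Scg2, Chgb and Pcsk1. Of 32851 mouse windows of the same length, 1.55% held them, and of the 12460 tested genes with a window 2.83% did. The following lines give 30 bases around each site, 5′ to 3′ on the strand of the gene, with the 8 letters in capitals. The site of Scg2 lies at chr1:79440076-79440105 on the minus strand, that of Chgb at chr2:132781559-132781588 on the plus strand, and that of Pcsk1 at chr13:75089768-75089797 on the plus strand. Chga, at chr12:102554886-102554915 on the plus strand, is given as a comparison: its capitals hold the shorter half-site TGACG and differ from the 8 letters by C7A, counted from 1 at the first capital.
Scg2: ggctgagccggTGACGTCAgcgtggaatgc
Chgb: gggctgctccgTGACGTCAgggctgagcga
Pcsk1: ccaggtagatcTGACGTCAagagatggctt
Chga: gggcggtcctaTGACGTAAtttcctgggtg
The capitals began 68 bases before the RefSeq start in Scg2, 72 in Chgb, 78 in Pcsk1 and 44 in Chga. In the GENCODE annotation the gene models of Scg2 and Chgb begin further out, so these sites lie inside those models, and a RefSeq model of Pcsk1 also begins further out than its window. The half-site TGACG, on either strand and counted also inside the 8 letters, was in 7 of the 9 windows, and in neither Resp18 nor Pcsk1n. It was in 17.8% of all windows and in 27.8% of the tested genes with a window. The forkhead letters TGTTTAC, on either strand, were in the window of Pcsk1 only, 44 to 38 bases before the start. They were in 3.17% of all windows and in 2.91% of the tested genes with a window.

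The whole 250-base windows of Chga and Resp18 are printed because Chga is the granin most used as a marker and Resp18 is a member with a large difference and none of these letters, and neither overlaps an annotated exon of its own gene. The window of Chga lies at chr12:102554691-102554940 on the plus strand, with the half-site in capitals. The window of Resp18 lies at chr1:75278416-75278665 on the minus strand and holds none of the letters searched.
Chga: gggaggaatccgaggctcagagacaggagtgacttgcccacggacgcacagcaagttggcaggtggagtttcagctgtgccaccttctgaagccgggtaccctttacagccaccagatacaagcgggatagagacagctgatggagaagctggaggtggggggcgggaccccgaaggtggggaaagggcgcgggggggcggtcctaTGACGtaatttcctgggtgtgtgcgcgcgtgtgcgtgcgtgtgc
Resp18: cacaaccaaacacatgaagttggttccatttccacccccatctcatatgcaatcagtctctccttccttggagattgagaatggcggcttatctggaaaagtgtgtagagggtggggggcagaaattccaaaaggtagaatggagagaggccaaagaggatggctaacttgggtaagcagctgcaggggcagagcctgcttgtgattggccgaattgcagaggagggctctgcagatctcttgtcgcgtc
The members with the 8 letters did not share a size of difference. Pcsk1 and Scg2 were among the members furthest below TRAMP, whereas Chgb, with the same letters, was near the other end, and Resp18, with none of them, was also among the members furthest below TRAMP. Over all 353 tested genes with the 8 letters, 11.3% were more than 2-fold lower in Phf8-KO and the median log2 fold change was -0.07, against 14.7% and 0.05 over the 12460 tested genes with a window. A match of letters is a description and not a binding site.

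Of the 10 granule genes 9 lay below their TRAMP level in each Phf8-KO pool, by 1.72-fold (Chgb) to 486-fold (Pcsk1) in edgeR's fit, and 0 of the 10 passed edgeR's test after adjustment. Pcsk1, Resp18 and Scg2 were expressed in TRAMP at 13.0 to 60.1 CPM and were nearly undetected in both Phf8-KO pools. Chga, Scg3 and Scg5 were lower in both Phf8-KO pools, with log2 fold changes between -2.23 and -1.66, and for these the pools were within counting error of each other. Cpe, Pcsk2 and Pcsk1n were low in Phf8-KO2, whereas Phf8-KO1 lay within counting error of TRAMP. All 10 members passed the filter on low counts and were tested.

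**Figure D1:**
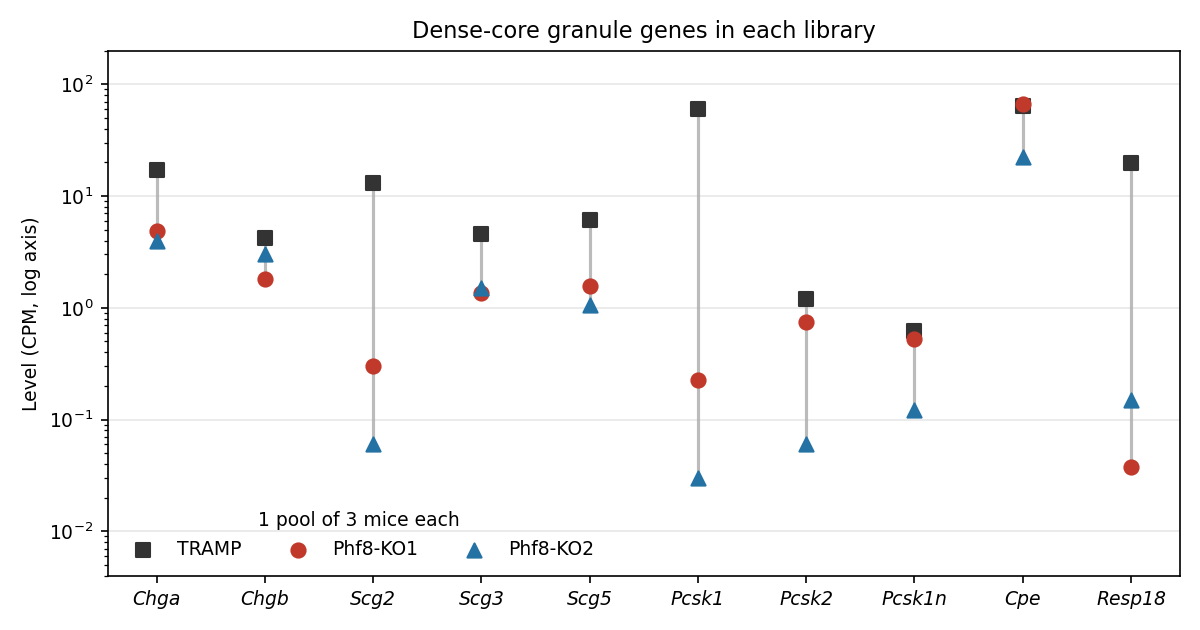
Level (CPM, log axis) of each of the 10 granule genes, where squares mark TRAMP, circles Phf8-KO1 and triangles Phf8-KO2 (pools of 3 mice). Pcsk1 spans the range between 60.1 CPM (TRAMP) and 0.0302 CPM (Phf8-KO2), while for Cpe the TRAMP and Phf8-KO1 points (63.5 and 67.3 CPM) lie on each other.

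The levels of 9 members were below TRAMP in both Phf8-KO pools, the exception being Cpe, where 42.8% of all tested genes were. In the quasi-likelihood test of edgeR, adjusted by Benjamini-Hochberg over 18216 genes, 0 of the 10 members were called lower and 0 higher at an adjusted p under 0.05 and more than 2-fold, and the same test called 7 genes in all lower (0.0384%). At an unadjusted p under 0.05, 6 members were lower (Chga, Scg2, Scg3, Scg5, Pcsk1 and Resp18), against 12.2% of all tested genes. A log2 fold change under -1 was found for 7 members, against 16.1% of all tested genes. DESeq2, the tool of the study, called 4 members lower (Chga, Scg2, Pcsk1 and Resp18) and 0 higher, where it called 4.59% of genes lower, and limma-voom called 0 members. The median log2 fold change was -1.81 over the members and 0.01 over all tested genes. The lowest adjusted p-value of a member was 0.101 in edgeR, where the spread had 1 residual degree of freedom.

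**Figure D2:**
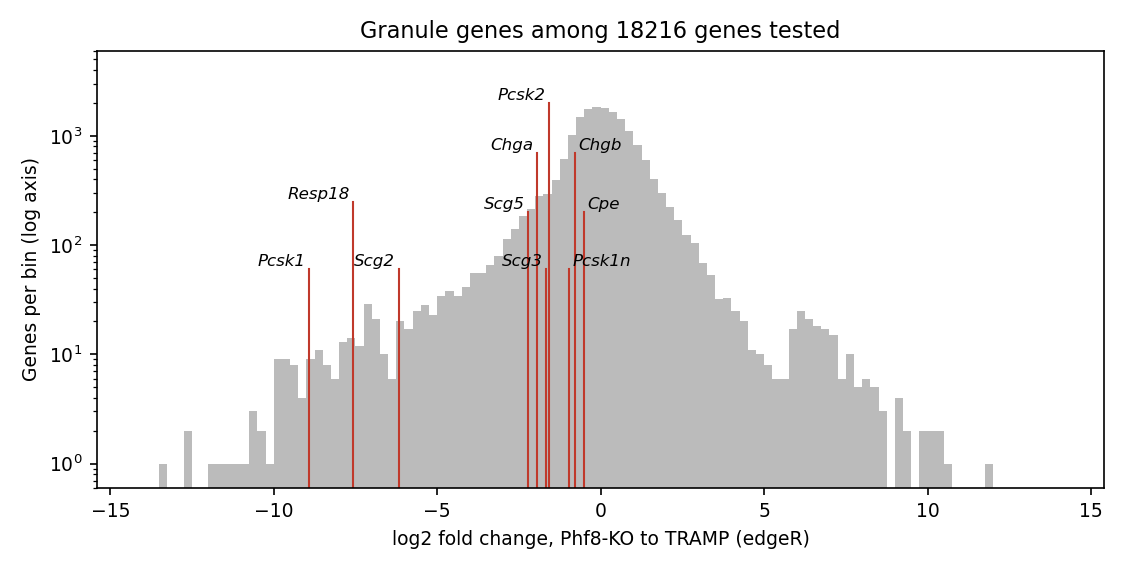
Distribution of the log2 fold change of Phf8-KO to TRAMP over 18216 tested genes (grey bars, number of genes on a log axis), with the granule genes marked by red lines whose heights only keep the names apart. Pcsk1 (-8.92), Resp18 (-7.58) and Scg2 (-6.18) lie in the far left tail, and the other 7 members lie between -2.23 and -0.50.

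Among the granins, Chga had 492 counts in TRAMP, 130 in Phf8-KO1 and 130 in Phf8-KO2, or 17.0, 4.88 and 3.92 CPM. Both Phf8-KO pools were low, and their mean was 4.40 ± 0.675 CPM (SD, n = 2). The log2 fold change was -1.95 (standard error 0.37), with an adjusted p of 0.105 in edgeR and 0.00504 in DESeq2. The counting intervals of the TRAMP to Phf8-KO ratios were 2.87 to 4.27 for Phf8-KO1 and 3.57 to 5.31 for Phf8-KO2 (95%, exact conditional method). These intervals cover counting error only and hold no variation between mice or pools. They also treat PCR copies of a molecule as separate reads.

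Scg2, the gene of secretogranin II, the precursor of secretoneurin, had 375 counts in TRAMP and 8 and 2 counts in Phf8-KO1 and Phf8-KO2. Its levels were 13.0, 0.300 and 0.0603 CPM, and the log2 fold change was -6.18 (standard error 0.95, adjusted p = 0.101 in edgeR and 6.49e-08 in DESeq2). The TRAMP level was 43.2 times that of Phf8-KO1 (95% counting interval 21.7 to 100.9) and 215 times that of Phf8-KO2 (59.1 to 1782). The Phf8-KO pools could not be told apart at this depth, with a ratio of 4.97 and an interval of 0.993 to 48.1. Scg2 was the only granin near the counting limit in Phf8-KO.

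Chgb and Scg3 showed smaller differences. Scg3, whose product secretogranin III tethers granin aggregates to the granule membrane, was at 4.53 CPM in TRAMP, with Phf8-KO1 at 1.35 and Phf8-KO2 at 1.51 CPM, and both Phf8-KO pools were low (log2 fold change -1.66, standard error 0.54, adjusted p = 0.166 in edgeR and 0.218 in DESeq2). Chgb, the chromogranin B gene, was at 4.19, 1.80 and 3.05 CPM. Counting error did not cover the gap between its Phf8-KO pools, at a ratio of Phf8-KO1 to Phf8-KO2 of 0.591 (0.410 to 0.841), and Phf8-KO2 was the nearer to TRAMP. The log2 fold change of Chgb was -0.79 (standard error 0.60, adjusted p = 0.447 in edgeR and 0.630 in DESeq2). So the 4 granins were not lower by a common factor: the TRAMP to Phf8-KO2 ratio was 1.37 for Chgb, 3.00 for Scg3, 4.34 for Chga and 215 for Scg2.

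**Figure D3:**
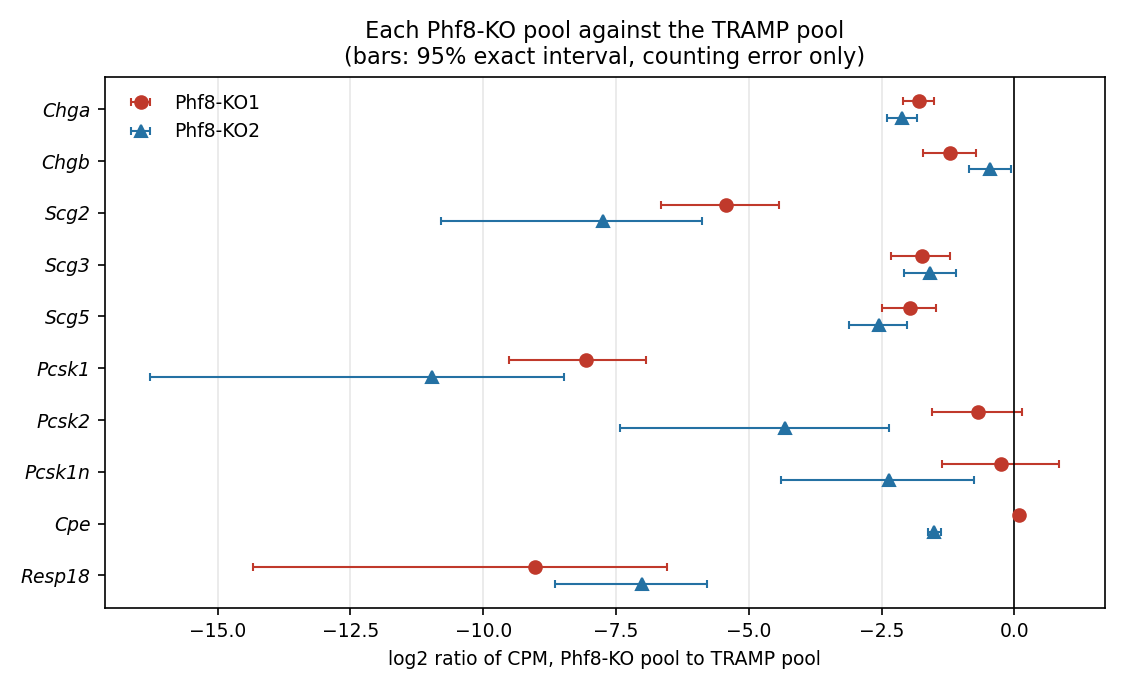
The log2 ratio of CPM of Phf8-KO1 (circles) and Phf8-KO2 (triangles) to TRAMP for each granule gene, with bars for the 95% exact interval of counting error. Points of both pools lie left of 0 for 9 genes, Cpe in Phf8-KO1 lies just right of it, and the bars of Phf8-KO1 reach 0 for Pcsk2, Pcsk1n and Cpe.

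The prohormone convertases differed from each other in both level and pattern. Pcsk1, which makes the first cuts in prohormones, had 1737 counts in TRAMP, 6 in Phf8-KO1 and 1 in Phf8-KO2, or 60.1, 0.225 and 0.0302 CPM. Its log2 fold change of -8.92 (standard error 0.75) ranked 52 from the lowest of 18216 tested genes, with an adjusted p of 0.101 in edgeR and 2.48e-05 in DESeq2. The ratio of TRAMP to Phf8-KO1 was 267 (122 to 728) and that to Phf8-KO2 was 1992 (357 to 78710), the latter resting on 1 count. Pcsk2, which completes the processing of many prohormones, had only 35 counts in TRAMP, 20 in Phf8-KO1 and 2 in Phf8-KO2. Its levels were 1.21, 0.750 and 0.0603 CPM, so Phf8-KO1 was near TRAMP and Phf8-KO2 was low. The log2 fold change of Pcsk2 was -1.59 (standard error 1.50, adjusted p = 0.526 in edgeR and 0.676 in DESeq2), and it was -0.69 without Phf8-KO2 and -4.33 without Phf8-KO1. The ratio of Phf8-KO1 to Phf8-KO2 was 12.4 (3.02 to 110). Pcsk2 overlaps exons of the opposite-strand genes Pcsk2os1 and Pcsk2os2, which had 0 to 5 counts a library, and the strand setting of the counting was not given in the sources used here.

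Per kilobase of exon, Pcsk1 exceeded Pcsk2 by a factor of 70.1 in TRAMP. In Phf8-KO1 this factor was 0.423 and in Phf8-KO2 it was 0.706, each on fewer than 10 counts of Pcsk1. Of this pair TRAMP held mostly Pcsk1 RNA, and neither gene was above 1 CPM in the Phf8-KO pools.

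The small proteins that bind these convertases had contrasting values. Scg5 encodes 7B2, the chaperone of the Pcsk2 product, and was at 6.16 CPM in TRAMP, with Phf8-KO1 at 1.58 and Phf8-KO2 at 1.06 CPM. Both Phf8-KO pools were low, and their ratio of 1.49 had an interval that held 1 (0.930 to 2.41). The log2 fold change of Scg5 was -2.23 (standard error 0.56, adjusted p = 0.129 in edgeR and 0.0619 in DESeq2). Pcsk1n encodes proSAAS, an inhibitor of the Pcsk1 product, and had 18, 14 and 4 counts, or 0.623, 0.525 and 0.121 CPM. Phf8-KO1 lay near TRAMP at a ratio of 1.19 (0.557 to 2.58), and the log2 fold change was -0.96 (standard error 1.27, adjusted p = 0.652 in edgeR, with none given by DESeq2). A difference between TRAMP and Phf8-KO1 was therefore not detectable for Pcsk1n at this depth. The annotation places exons of Eras over those of Pcsk1n on the other strand, and Eras had 0 counts in each library.

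Cpe was the member with the highest level per kilobase and the one member not below TRAMP in both Phf8-KO pools. Its product removes basic residues from cleaved prohormones. It had 1835 counts in TRAMP, 1795 in Phf8-KO1 and 741 in Phf8-KO2, or 63.5, 67.3 and 22.4 CPM. The Phf8-KO mean was 44.8 ± 31.8 CPM (SD, n = 2), so the spread between the Phf8-KO pools exceeded their difference from TRAMP, and the log2 fold change was -0.50 (standard error 0.70, adjusted p = 0.666 in edgeR and 0.668 in DESeq2). Without Phf8-KO2 the log2 fold change was 0.09, and without Phf8-KO1 it was -1.51. The ratio of Phf8-KO1 to Phf8-KO2 was 3.01 (2.76 to 3.29). The ratio of TRAMP to Phf8-KO1 was 0.943 (0.883 to 1.01), within counting error. The 10 smooth muscle markers had another shape, far above TRAMP in Phf8-KO1 only by their sums (694, 5162 and 390 CPM, with Acta2 at 196, 1509 and 156 CPM and Myh11 at 126, 1415 and 72.2 CPM). The 8 fibroblast markers had no common pattern (Dcn 1473, 639 and 214 CPM, Col1a1 8.20, 163 and 97.1 CPM). Of these, 4 of 8 were above TRAMP in both Phf8-KO pools, against 40.8% of all tested genes. The part of smooth muscle and fibroblasts in the level of Cpe was not tested.

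Resp18, whose product is a luminal protein of endocrine secretory granules, had 566 counts in TRAMP, 1 in Phf8-KO1 and 5 in Phf8-KO2. Its levels were 19.6, 0.0375 and 0.151 CPM, with both Phf8-KO pools near the limit of detection. The log2 fold change was -7.58 (standard error 0.76, adjusted p = 0.101 in edgeR and 2.54e-14 in DESeq2). Over both Phf8-KO pools the TRAMP level was 195 times as high (89.1 to 534). The pools themselves did not differ beyond counting error, at a ratio of Phf8-KO1 to Phf8-KO2 of 0.249 (0.00526 to 2.22). An annotated gene on the other strand, Gm28902, overlaps its exons and was not in the table.

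Compared per kilobase of exon, the order of the members in TRAMP was Cpe (24.3 CPM per kb), Resp18 (19.0), Pcsk1 (10.7), Chga (6.18), Scg2 (5.16), Scg5 (3.92), Scg3 (1.66), Chgb (1.53), Pcsk1n (0.284) and Pcsk2 (0.153). The counting intervals of Chga and Scg2, of Scg3 and Chgb, and of Pcsk1n and Pcsk2 overlapped. An overlap does not by itself show that levels are alike, and the order within these pairs was not tested. In Phf8-KO1 the order began with Cpe (25.8), Chga (1.77), Scg5 and Chgb (0.657), and in Phf8-KO2 with Cpe (8.57), Chga (1.42), Chgb (1.11) and Scg5 (0.673). Chga had the highest level per kilobase of the granins in all 3 libraries, though its interval overlapped that of Scg2 in TRAMP and that of Chgb in Phf8-KO2. Resp18 and Pcsk1, next to Cpe in TRAMP, were among the lowest 5 members in both Phf8-KO pools. The intervals of neighbours among these 5 overlapped there, and their order was not tested.

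Summed over the 10 members, the level was 189.8 CPM in TRAMP, with Phf8-KO1 at 78.8 and Phf8-KO2 at 32.3 CPM. Without Cpe these sums were 126.4, 11.4 and 9.96 CPM (in CPM, not per length), so the gap between the Phf8-KO pools lay almost wholly in Cpe. Cpe made up 33.4% of the summed level in TRAMP, 85.5% in Phf8-KO1 and 69.2% in Phf8-KO2. Pcsk1 made up 31.7% in TRAMP and 0.286% and 0.0934% in the Phf8-KO pools. Chga contributed 8.97%, 6.19% and 12.1%.

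**Figure D4:**
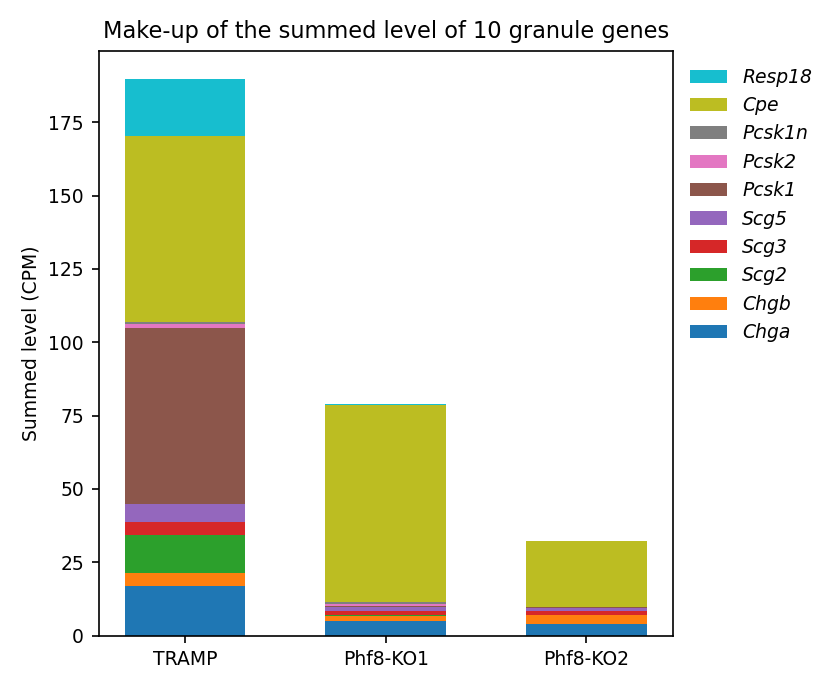
Summed level (CPM) of the 10 granule genes in each library, stacked by gene. The bars reach 189.8, 78.8 and 32.3 CPM, and Cpe alone fills 85.5% of the Phf8-KO1 bar and 69.2% of the Phf8-KO2 bar.

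Epithelial genes were not lower in the Phf8-KO pools. Epcam, Krt8, Krt18 and Cdh1 summed to 3843 CPM in TRAMP, with Phf8-KO1 at 4639 and Phf8-KO2 at 4568 CPM. Per 1000 CPM of these genes, Chga was at 4.43, 1.05 and 0.859, Pcsk1 at 15.6, 0.0485 and 0.00660, and Cpe at 16.5, 14.5 and 4.89. On this scale the log2 ratio of the Phf8-KO mean to TRAMP was negative for all 10 members, from -9.15 (Pcsk1) to -0.77 (Cpe).

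The tested genes next to the members on the chromosome had log2 fold changes between -0.97 and 2.04, and those beside Resp18, Chga, Scg2 and Pcsk1 are given. Ptprn, 7.70 kb from Resp18 and itself the gene of a granule membrane protein, was at 0.726, 0.450 and 0.815 CPM, and Dnpep on the other side of Resp18 was at 74.5, 74.6 and 56.0 CPM. Itpk1, 3.55 kb from Chga, was at 67.0 CPM in TRAMP, with Phf8-KO1 at 153 and Phf8-KO2 at 204 CPM. Golga5, on the other side of Chga, was at 83.7, 62.9 and 59.0 CPM. Beside Scg2, Ap1s3 was at 11.2, 51.1 and 40.9 CPM and Kcne4 at 3.53, 6.19 and 5.16 CPM. Cast and Ell2, on either side of Pcsk1, had log2 fold changes of -0.44 and -0.94. None of the neighbours named here passed edgeR's test, and neither did any member. The log2 fold changes of Ap1s3 and Itpk1 were 2.04 and 1.41 (adjusted p = 0.101 and 0.105 in edgeR). Not passing therefore does not show that a neighbour was unchanged.

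Other genes of granule cargo and membranes had no common direction. Of 11 listed genes 9 were tested, and 3 of these (33.3%) were below TRAMP in both Phf8-KO pools, against 42.8% of all tested genes. Of the 9, 0 were called by edgeR, and the median log2 fold change was 0.25. At an unadjusted p under 0.05, 2 (22.2%) were lower, against 12.2% of all tested genes. DESeq2 called 1 lower, where it called 4.59% of all genes lower. Slc18a2, the vesicular monoamine transporter gene, had 535 counts in TRAMP, 4 in Phf8-KO1 and 0 in Phf8-KO2 (adjusted p = 0.101 in edgeR and 0.110 in DESeq2). Nucb2, the precursor gene of nesfatin, was at 2242, 764 and 1184 CPM (log2 fold change -1.20, adjusted p = 0.180 in edgeR and 0.0142 in DESeq2). Pam, which amidates peptides and so acts after Cpe, was at 159, 224 and 153 CPM, and the granule cytochrome gene Cyb561 at 133, 153 and 171 CPM.

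Other convertases, carboxypeptidases and processing proteases lay, by their median, the other way. Of 13 listed genes, all tested, 8 were above TRAMP in both Phf8-KO pools, where 40.8% of all tested genes were. Of the 13, 0 were called by edgeR, 1 was lower and 3 were higher by the unadjusted p, DESeq2 called 1 lower and 2 higher (over all genes, 14.9% were higher by the unadjusted p and 9.42% were called higher by DESeq2), and the median log2 fold change was 0.59. Furin, the convertase of the trans-Golgi network in most cells, was at 14.4 CPM in TRAMP, with Phf8-KO1 at 60.5 and Phf8-KO2 at 42.8 CPM (log2 fold change 1.85, adjusted p = 0.101 in edgeR and 9.07e-05 in DESeq2). Cpm, a carboxypeptidase of the cell surface, was at 43.1, 179 and 171 CPM (log2 fold change 2.02, adjusted p = 0.101 in edgeR and 8.22e-11 in DESeq2). Ctsl, the gene of cathepsin L, a protease of lysosomes that also acts in secretory vesicles, was at 461, 89.4 and 46.2 CPM (log2 fold change -2.77, adjusted p = 0.101 in edgeR and 5.34e-08 in DESeq2). Cpd and Mbtps1, with the highest mean CPM of the list, were at 229, 284 and 229 CPM and at 233, 351 and 243 CPM.

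Peptide hormones that such granules carry passed the filter about as often as all gene rows did. Of 27 listed genes 11 were tested (40.7%, against 39.5% of all rows), 24 had at least 1 count, and Pyy, Ucn and Crh had 0 counts in all 3 libraries. Of the 11, 8 were below TRAMP in both Phf8-KO pools, against 42.8% of all tested genes, and the median log2 fold change was -2.07. Of these 11, 0 were called by edgeR, 3 were lower at an unadjusted p under 0.05 and 2 were called lower by DESeq2. Over all genes, 12.2% were lower by the unadjusted p and DESeq2 called 4.59% lower. Tac1, the substance P gene, was at 5.15, 0.188 and 0.0905 CPM, and Calca, the gene of calcitonin and of a peptide of sensory neurons, at 2.35, 0.150 and 0.121 CPM. Grp, the gastrin-releasing peptide gene, was at 2.63, 0.263 and 0.724 CPM (adjusted p = 0.194 in edgeR), and Iapp, the amylin gene, had 26, 1 and 3 counts. Penk, the enkephalin precursor gene, had the highest mean CPM of the list and was not lower, at 39.1, 54.7 and 88.9 CPM, and Nmb was at 4.88, 8.22 and 5.37 CPM.

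Among 27 genes of granule biogenesis and exocytosis, the median log2 fold change was -0.06, with 0 called by edgeR, 6 lower and 4 higher by the unadjusted p, and 4 lower and 2 higher in DESeq2. By the unadjusted p, 22.2% of the list were lower and 14.8% higher, against 12.2% and 14.9% of all tested genes. Over all genes DESeq2 called 4.59% lower and 9.42% higher. Snap25 (13.1, 2.44 and 1.69 CPM) and Syt1 (14.5, 4.24 and 2.59 CPM), genes of membrane fusion, were low in both Phf8-KO pools as Chga was, whereas Unc13d (1.83, 9.83 and 10.6 CPM) was high. Rab2a and Rab3d, with the highest mean CPM of the list, had log2 fold changes of -0.06 and -0.26.

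**Figure D5:**
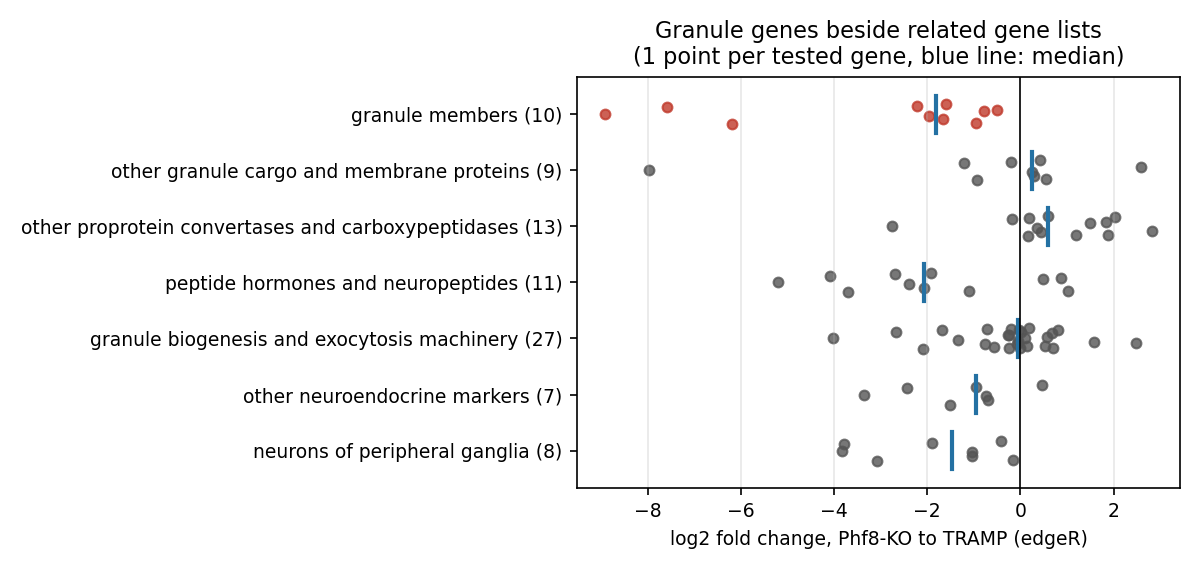
Log2 fold change of Phf8-KO to TRAMP for each tested gene of 7 lists (1 point a gene, number tested in brackets, spread vertically only for legibility), with a blue line at the median of each list. The medians are -1.81 for the granule members, 0.25 for other granule cargo, 0.59 for other convertases, -2.07 for peptide hormones and -0.06 for exocytosis genes, and the lists overlap widely.

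Markers of the cells that could hold such granules were checked. Of 10 other neuroendocrine markers, 7 were tested and 5 were below TRAMP in both Phf8-KO pools, against 42.8% of all tested genes. Their summed levels were 57.8, 46.7 and 24.0 CPM. Syp was at 6.30, 2.44 and 1.96 CPM, Foxa2 at 4.84, 0.300 and 0.634 CPM, Prox1 at 16.4, 3.64 and 2.44 CPM, and Uchl1 at 9.69, 6.68 and 3.32 CPM. Ncam1 was not lower in both (15.7, 29.4 and 13.9 CPM), and Neurod1 had 0 counts in all 3 libraries. DESeq2 called Foxa2 and Prox1 lower, where it called 4.59% of all genes lower, and edgeR called none of the 7.

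Genes of peripheral neurons, which also make dense-core granules, were mostly at lower levels in the Phf8-KO pools, without a call in either tool. Of 10 listed genes 8 were tested, and 7 of these were below TRAMP in both Phf8-KO pools, against 42.8% of all tested genes. The summed levels were 23.6, 15.2 and 7.72 CPM. Of the 8, 0 were called by edgeR and 0 by DESeq2, and 2 were lower by the unadjusted p, against 12.2% of all tested genes. Their defining markers were sparse: Th had 42, 5 and 5 counts, Dbh 30, 4 and 0, and Phox2a 0, 1 and 0. Prph, a filament gene of peripheral neurons, was at 5.57, 4.61 and 0.784 CPM, so that Phf8-KO1 was near TRAMP and Phf8-KO2 was low, the order also seen in Pcsk2 and Pcsk1n. The part of neurons in the levels of the members was not tested. Luminal markers of the prostate summed to 5641, 7913 and 6970 CPM, so the markers of the labelled tissue were present in every library.

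The genes whose levels were most like those of a member were sought by the distance between pairs of log2 ratios (each Phf8-KO pool to TRAMP), among 14712 tested genes outside the lists with a mean of at least 1 CPM. The nearest to Chga were Acss3 (distance 0.02), Gbp3 (0.08) and Tnfrsf13b (0.09), with Acss3 at 6.26, 1.76 and 1.45 CPM. The nearest to Pcsk1 were Xirp2 (0.30), Gm32913 (0.93) and Pgam2 (0.98), of which Xirp2 was at 25.8, 0.0750 and 0 CPM and Pgam2 at 16.1, 0.0375 and 0 CPM. The log2 ratios of Pcsk1, -7.86 and -9.88, rested on 6 and 1 counts in the Phf8-KO pools. Listed genes were left out of the search, among them the urothelial gene Krt20, with log2 ratios of -8.28 and -9.80. Xirp2 and Pgam2 are genes of striated muscle, and the skeletal muscle markers, at 1585 CPM in TRAMP, were lower in the same pools. Of these markers edgeR called 5 of 10 lower, against 0.0384% of all tested genes. The part of muscle RNA in the level of Pcsk1 was not tested, and with only 2 ratios a gene this likeness is a description.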

How the data were processed

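Total RNA of tumor tissue, pooled from 3 mice per library in equal mass, was sequenced as 1 TRAMP and 2 Phf8-KO libraries. Per the study's methods, the authors aligned filtered reads to GRCm38 by HISAT2 and deposited counts per gene from HTSeq, which are whole numbers that are not normalized. Strand and multi-mapping settings and the annotation release were not given in the sources used here. Counting reads per gene leaves out or splits reads shared by overlapping genes. Groups were taken from the genotype and title labels.

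Counts were analysed with edgeR 4.0.16 (R 4.3.3): filterByExpr by group, TMM scaling, the quasi-likelihood test and Benjamini-Hochberg adjustment over all 18216 genes tested. Calls needed both a fold above 2 or below 0.5 and an adjusted p below 0.05. Standard errors were the log2 fold change divided by the root of F. DESeq2 1.42.0 and limma 3.58.1 (voom) were alternatives, as were other scalings, filters and prior counts. The edgeR step was tested on simulated data. DESeq2 gave no adjusted p for 9488 of 25757 genes, which were left out of its counts. Ratios of libraries have exact conditional 95% intervals (scipy 1.17.1). Levels per kilobase used the union of GENCODE exons of the GRCm38 build, and promoter windows came from RefSeq.

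The members and lists were chosen with earlier results of these data known. Genes named were all members, up to 4 genes of each other list with the smallest unadjusted p and up to 2 with the highest mean CPM, and the 3 genes most like Chga and Pcsk1. Krt8 and Krt18 were named as parts of the epithelial sum, the chromosome neighbours and the overlapping genes by position, and Phox2a, Neurod1, Pyy, Ucn and Crh were named for their low counts after their values were seen. Some genes that this rule names are not reported here. Depth limits genes such as Pcsk1n, where 3 counts equal 0.0905 to 0.113 CPM.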

Additional observations from a re-analysis of the deposited data

How the results depend on the processing

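The number of members called lower in Phf8-KO, 0 by edgeR, was 4 without the filter on low counts and 4 with DESeq2, and 0 with every other scaling, filter and test tried. Over all genes the 7 called lower became 19 with library size only, 856 without the filter, 0 at a mean of at least 1 CPM, 747 with DESeq2 and 0 with limma-voom. The 0 called higher became 1 with library size only, 1430 without the filter and 1533 with DESeq2. The cause was not tested. The number of members more than 2-fold lower, a count added after the data were seen, was 7, between 6 and 8 under the other fits (6 at a mean of at least 1 CPM, where 8 members were tested), 9 without Phf8-KO1 and 7 without Phf8-KO2. Of 118 alternative values of the members' log2 fold changes, 8 passed the threshold, and 1 was above 0, that of Cpe without Phf8-KO2 (0.09). Only the values without a Phf8-KO pool and those relative to the epithelial genes were set against the spread (SD) of the Phf8-KO pools. Of these, 4 moved by more: Chga and Scg3 relative to the epithelial genes, Pcsk2 without Phf8-KO1 and Resp18 without Phf8-KO2. Leaving out a pool moves a value by only part of the gap between the pools, so this rule was hard to pass and says little about stability. Upper quartile scaling moved the median log2 fold change of all genes from 0.01 to -0.14 and that of the members from -1.81 to -1.95. Fits that leave out a Phf8-KO pool have no residual degrees of freedom, so they gave values without a test and no counts of calls. No paired analysis was possible because the TRAMP group holds 1 library. With 1 control library, variation among TRAMP pools is unknown, and members with under 10 counts are limited by depth.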
